A study of Mus musculus with 14 samples.

Results

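Synaptic vesicle and active zone genes encode the machinery with which a nerve terminal stores and releases transmitter. This group of 46 genes comes from a list of named genes, and members were found by matching the RefSeq transcript accession of each array probe, without its version, to the gene. A probe was found for 45 genes, and 42 were tested, of 14437 genes tested on the array. Where a gene had several probes, the probe with the highest mean signal stood for it. The 42 tested genes comprised 11 vesicle membrane and vesicle-associated genes, 9 SNAREs with their regulators and disassembly factors and 9 active zone genes. The rest were 10 synaptotagmin, Doc2 and complexin genes and 3 genes of vesicle retrieval.

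The medial prefrontal cortex (mPFC), a frontal region that takes part in emotional and social behaviour, was sampled from 14 wild-type C57BL/6 mice. Repeated social defeat stress confronts a mouse with an aggressor over several sessions. The defeated mice were classed by behaviour as susceptible (6 mice) or resilient (3 mice), and the 5 naive mice were only transferred between cages. Tissue was taken with a punch of 1.5 mm from brains perfused 4 h after the final session, and from each mouse 35 ng of RNA was labelled with Cy3 and hybridised to an array of its own. A punch holds every cell type of the region, so fewer cells of a type and less RNA per cell cannot be told apart. The labels mention independent experiments but do not say which mouse belonged to which, so experiment could not be entered in the fits.

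In a nerve terminal, vesicles are filled with transmitter, tethered by synapsins and brought to the active zone, the patch of membrane where release takes place. There RIM, bassoon, piccolo and ELKS form a scaffold, Unc13 proteins prime vesicles, and SNARE proteins fuse them with the membrane once synaptotagmins sense calcium. Dynamin and synaptojanin then help to retrieve the membrane, and NSF with its SNAP adaptors takes the spent SNARE complexes apart. In the prefrontal cortex these genes are transcribed mainly in neurons.

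Per array, 48.0% to 65.4% of spots were well above background and none was saturated. How many arrays there are is one limit on precision. They came from 3 slides and 2 scan days. Slides 1 and 2, from scan day 1, held mice of all 3 groups, and slide 3, from scan day 2, held 2 susceptible and 2 naive mice. The arrays of defeated mice all occupied slide row 2 and those of naive mice row 1, so the effects of defeat and of slide row cannot be told apart. Array brightness, the 75th percentile of log2 signal, also differed. On slides 1 and 2 it was 7.14 to 7.25 in naive mice and 7.56 to 8.04 in defeated mice, without overlap. On slide 3 it was 8.39 and 8.49 in naive mice 4 and 5 and 9.08 and 8.49 in susceptible mice 5 and 6. Counts with brightness as a covariate are given below. The array of naive mouse 3 stood apart for these genes, with the lowest share of spots above background (48.0%) and the lowest signal of all 14 mice for 15 of the 42 genes. Naive mouse 2, on the same slide, was lowest for 7 of them. For the genes called between defeated and naive mice and for the medians, values without naive mouse 3 are given below. Values without naive mouse 2 are given for Dnm1, and some counts of called genes are given without either mouse. For other single genes no such values are given.

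The 4 genes not tested were dim or had no probe. Sv2c, a vesicle glycoprotein gene, and Syt2, a fast calcium sensor of hindbrain and other terminals, were well above background on 0 of 14 arrays. Syt12 was above background on 2 arrays, both of susceptible mice, and Syt5 had no probe matched by accession. All values below are log2 signals relative to the 75th percentile of the array, and differences are log2 differences with the standard error (SE) of the fit. Groups were compared with limma in a single fit of the 14 arrays, with Benjamini-Hochberg adjustment over all 14437 genes and a threshold of 0.05 on the adjusted p. Levels of different genes come from different probes and are not compared with each other.

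The first question was whether defeat, in either behavioural class, went with a change of these genes. When the average of the susceptible and resilient group means was set against the naive mean, Synj1, Dnm1 and Syp rose and Unc13c fell. These were 4 of 42 genes (9.52%), 3 higher and 1 lower, beside 7.54% of all genes tested in that comparison (4.21% higher and 3.33% lower). Of the 42 genes, 37 had a difference above 0 and 5 below, with a median of 0.21, while 53.6% of all genes lay above 0 with a median of 0.02. By role, 2 of 3 retrieval genes, 1 of 11 vesicle genes and 1 of 9 active zone genes passed. Among the SNARE genes 0 of 9 passed, and among the synaptotagmin, Doc2 and complexin genes 0 of 10. At an unadjusted p under 0.05 the count in limma was 15 of 42. The share of all genes under that unadjusted threshold is not given, here or below. Such counts therefore do not set these genes apart from the rest.

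The median signal of the 42 genes in each mouse, relative to the naive mean, was 0.11, 0.16, 0.22, 0.18, 0.31 and 0.18 in susceptible mice 1 to 6. It was 0.23, 0.27 and 0.21 in resilient mice 1 to 3. It was -0.03, -0.14, -0.12, 0.15 and 0.15 in naive mice 1 to 5. All 3 resilient mice and 5 of the 6 susceptible mice lay above every naive mouse, and susceptible mouse 1 lay below naive mice 4 and 5. Those 2 naive mice were on slide 3, and the 3 other naive mice, on slides 1 and 2, were below the naive mean.

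Markers of cell types were measured on the same arrays. The 12 neuron markers had a median difference of 0.27 between defeated and naive mice, with 0 of 12 called by limma. Their summed level, in linear units of the array's 75th percentile, was 477 to 657 in susceptible, 530 to 582 in resilient and 409 to 483 in naive mice, with a narrow overlap of susceptible and naive mice. The 9 astrocyte markers had a median difference of -0.39, and Aldoc and S100b fell. Their summed level was 518 to 650 in susceptible, 516 to 599 in resilient and 709 to 908 in naive mice, without overlap of the defeated and naive mice. In these 2 lists no marker was below background on all arrays. The median difference was -0.21 for 9 cortical excitatory neuron markers and 0.18 for 9 inhibitory neuron markers, with 0 called in either list. Among the 8 striatal markers Adora2a fell, among 6 endothelial markers Slco1a4 fell, among 9 microglia markers Aif1 fell, and among 3 choroid plexus markers Ttr fell. None passed among markers of oligodendrocytes (median -0.21), their precursors (0.08), pericytes and smooth muscle (-0.40), meningeal fibroblasts (-1.14) and erythroid cells (1.16). Of all genes, 7.54% passed in this fit, and 20.2% (12.8% higher and 7.41% lower) once slide was entered as a block. With that block, Eno2, Nefm and Uchl1 rose among the 12 neuron markers (median 0.22) and Neurod2 and Nrgn among the excitatory markers (median -0.01). There Gad1 rose and Lhx6 fell among the inhibitory markers, and Aldoc and S100b fell among the astrocyte markers (median -0.25). Pde10a rose and Adora2a fell among the striatal markers, and Gpr17 rose among the precursor markers. Mog, Aif1 and Slco1a4 fell among the oligodendrocyte, microglia and endothelial markers. None passed in the remaining lists, and Ttr was no longer called. The part of these shifts in the results for the presynaptic genes was not tested.

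Vesicle retrieval held the gene of smallest p in the comparison of defeated with naive mice. Synj1 encodes synaptojanin 1, a lipid phosphatase that helps to shed clathrin from retrieved vesicles. Its signal was 0.37, 0.25, 0.11, -0.02, -0.02 and -0.32 in the 6 susceptible mice, 0.42, 0.38 and 0.03 in the 3 resilient mice and -0.19, -0.28, -0.30, -0.74 and -1.20 in the 5 naive mice. Each resilient mouse was above every naive mouse, and 1 susceptible mouse, number 6, lay within the naive range. The defeated mice were higher by 0.71 ± 0.17 (SE), with a limma adjusted p of 0.028. Without naive mouse 3, the lowest, the difference was 0.54 and the limma adjusted p 0.062.

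Dnm1 encodes dynamin 1, the GTPase that pinches vesicles off the membrane of nerve terminals. Its signal was 7.37, 7.36, 7.30, 7.26, 7.21 and 7.16 in susceptible mice, 7.45, 7.36 and 7.23 in resilient mice and 7.17, 7.05, 7.04, 6.93 and 6.77 in naive mice. The resilient mice lay above all naive mice, and of the susceptible mice number 6 lay just under the highest naive mouse. The difference of defeated from naive mice was 0.32 ± 0.09 (limma, adjusted p = 0.040). It was 0.30 without naive mouse 3 (limma, adjusted p = 0.082) and 0.26 without naive mouse 2 (adjusted p = 0.096). A second Dnm1 probe gave 0.50 ± 0.16 in a fit of each probe by itself and did not pass (limma, adjusted p = 0.075). Amph, which encodes the membrane-bending protein amphiphysin, had a difference of 0.14 ± 0.11 that did not pass the test.

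Among the vesicle genes, Syp encodes synaptophysin, an abundant membrane protein of synaptic vesicles. It was the 1 tested gene of the 42 for which the 9 defeated and the 5 naive mice did not overlap, where 2.91% of all genes did not overlap. Its signal was 6.43, 6.19, 6.07, 6.02, 5.96 and 5.93 in susceptible mice, 6.27, 6.09 and 5.97 in resilient mice and 5.89, 5.87, 5.80, 5.56 and 5.27 in naive mice. The gap between the lowest defeated and the highest naive mouse was small, and naive mouse 3 was again the lowest. The difference was 0.43 ± 0.12 (limma, adjusted p = 0.048), and 0.32 with an adjusted p of 0.11 without naive mouse 3. All 11 vesicle genes had differences above 0, with a median of 0.34, and apart from Syp none passed.

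Unc13c, the gene that fell, encodes Munc13-3, a priming factor of the active zone known best from the cerebellum. Its signal was 0.38, 0.23, 0.14, 0.02, -0.03 and -0.43 in susceptible mice, 0.42, 0.19 and -0.16 in resilient mice and 0.96, 0.76, 0.68, 0.55 and 0.36 in naive mice. The highest mouse of each defeated group lay slightly above naive mouse 1, the lowest naive mouse, and all other defeated mice lay below the naive range. The difference was -0.56 ± 0.14 (limma, adjusted p = 0.035), and -0.55 without naive mouse 3 (adjusted p = 0.077). Its 2 relatives had differences of the other sign that did not pass, 0.28 ± 0.22 for Unc13a, which encodes the main priming factor of cortical synapses, and 0.35 ± 0.15 for Unc13b.

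**Figure D1:**
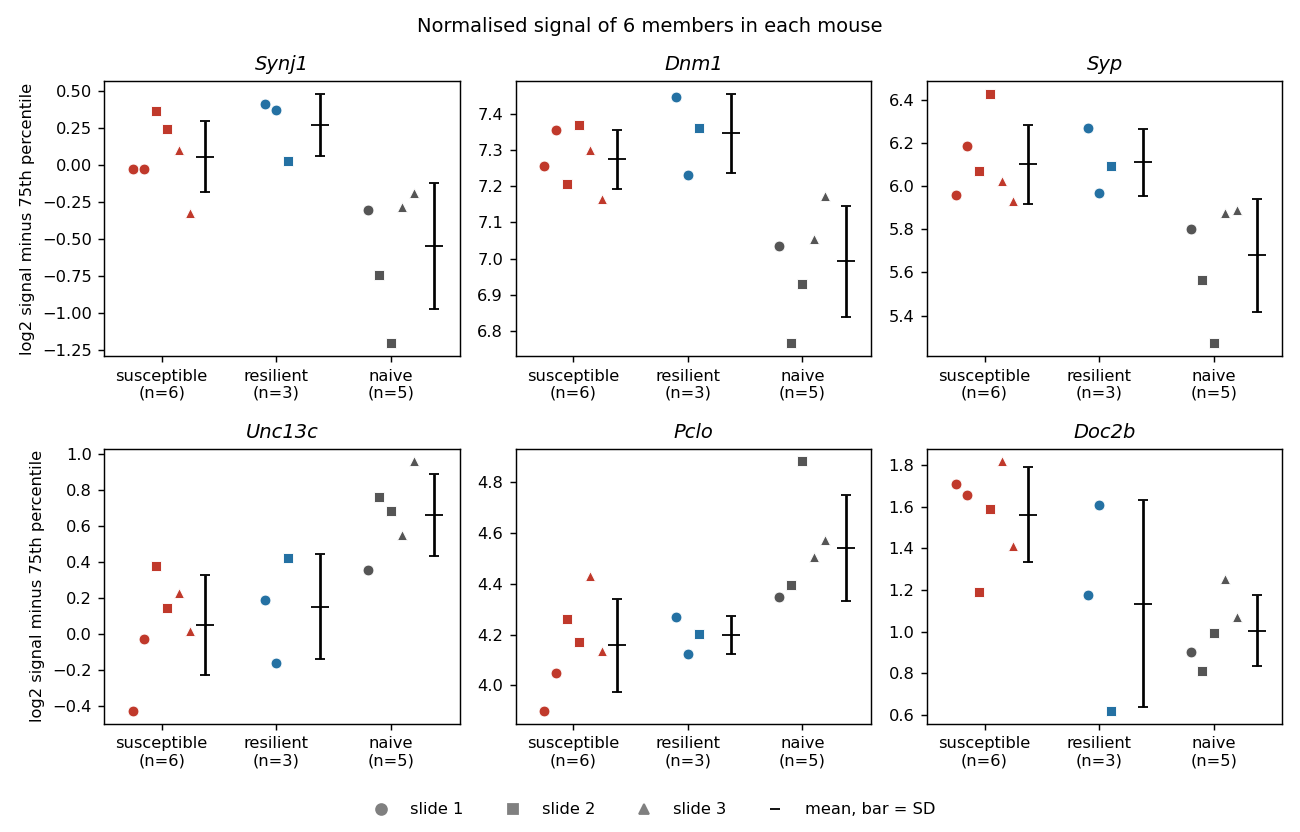
Signal of 6 genes in each mouse, as log2 signal minus the 75th percentile of the array (vertical axis), for susceptible, resilient and naive mice, with the slide as the symbol and the group mean ± SD as the bar. For Syp the defeated and naive mice do not overlap, for Synj1 and Dnm1 susceptible mouse 6 lies within the naive range, and Unc13c and Pclo are lower in defeated mice.

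The calls rested on few mice. Over 14 fits that each left out 1 mouse, Synj1 passed in 10, Unc13c in 8, Dnm1 in 5 and Syp in 3. The count of called genes was 0 without naive mouse 2, naive mouse 3, resilient mouse 1 or resilient mouse 2. It was 1 without susceptible mouse 2, and 2 without susceptible mouse 1, susceptible mouse 4 or resilient mouse 3. The share of all genes called moved as well, between 0.651% and 10.8% over these fits. The median difference of the 42 genes was 0.14 without naive mouse 3, the lowest of these fits, and 0.26 in the highest. The 4 calls were also lost when each array was scaled to its median in place of its 75th percentile. With that scaling 1.82% of all genes passed, against 7.54%.

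With slide as a block in the same fit, 10 of 42 genes passed between defeated and naive mice, beside 20.2% of all genes (12.8% higher and 7.41% lower). The 9 that rose were Bsn, Dnm1, Napa, Snap47, Sv2b, Synj1, Syp, Syt13 and Vamp1, and Unc13c fell. Sv2b, a vesicle glycoprotein gene, had the smallest adjusted p (0.010) with a difference of 0.45 ± 0.09 in limma, and Synj1, Dnm1 and Syp had 0.70, 0.32 and 0.43. Leaving out single mice moved this count between 1 (without naive mouse 1) and 15 (without susceptible mouse 6). It was 2 without resilient mouse 3. Over these fits 6.04% to 23.9% of all genes passed, and without naive mouse 1 no naive mouse was left on slide 1. With scan day in place of slide 15 of 42 passed, beside 25.8% of all genes, and with array brightness as a covariate 8 of 42, beside 19.6%.

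The start regions of the 4 genes called without the slide block are shown because these genes passed the test in the same comparison. Each window runs from 250 bases before to 50 bases after a RefSeq transcript start of assembly GRCm38.p6 and is written 5′ to 3′ on the strand of the gene, with capitals for GGGCGG, the GC box, and TGACG, the half-site of the cAMP response element, found on either strand. Syp lies at chrX:7638330-7638629 (plus strand), Dnm1 at chr2:32353280-32353579 (minus strand), Synj1 at chr16:91011046-91011345 (minus strand) and Unc13c at chr9:73968988-73969287 (minus strand).
Syp: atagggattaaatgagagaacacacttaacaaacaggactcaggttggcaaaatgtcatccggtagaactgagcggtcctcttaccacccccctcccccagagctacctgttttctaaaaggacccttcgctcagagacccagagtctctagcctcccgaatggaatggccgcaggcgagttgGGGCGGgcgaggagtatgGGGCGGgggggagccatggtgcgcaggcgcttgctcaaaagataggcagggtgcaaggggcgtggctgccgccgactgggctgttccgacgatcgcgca
Dnm1: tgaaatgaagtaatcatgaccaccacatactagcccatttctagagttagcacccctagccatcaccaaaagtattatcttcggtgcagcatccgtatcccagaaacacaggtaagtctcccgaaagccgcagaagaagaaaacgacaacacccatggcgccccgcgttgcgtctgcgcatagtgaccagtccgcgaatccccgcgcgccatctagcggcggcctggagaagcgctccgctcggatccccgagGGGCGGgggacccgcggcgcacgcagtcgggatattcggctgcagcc
Synj1: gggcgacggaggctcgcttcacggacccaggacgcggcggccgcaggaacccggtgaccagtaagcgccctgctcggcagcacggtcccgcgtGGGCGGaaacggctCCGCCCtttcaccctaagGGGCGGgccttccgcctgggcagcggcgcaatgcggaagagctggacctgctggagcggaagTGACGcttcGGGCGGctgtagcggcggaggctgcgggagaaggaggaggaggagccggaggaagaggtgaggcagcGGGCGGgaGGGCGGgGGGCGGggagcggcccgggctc
Unc13c: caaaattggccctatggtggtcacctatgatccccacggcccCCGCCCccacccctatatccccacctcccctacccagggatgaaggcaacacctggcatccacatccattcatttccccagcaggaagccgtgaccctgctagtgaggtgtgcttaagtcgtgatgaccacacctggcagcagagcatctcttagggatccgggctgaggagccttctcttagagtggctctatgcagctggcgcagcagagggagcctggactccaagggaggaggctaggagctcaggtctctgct
The Synj1 window held 7 GC boxes and 1 TGACG, that of Syp 2 GC boxes and those of Dnm1 and Unc13c 1 each. A second RefSeq start of Synj1, at chr16:91011259-91011558, held neither motif. Over both strands, GGGCGG was found in 28 of 42 windows of the 34 genes of the group that the table holds (66.7%) and in 35.9% of all 32544 windows. The windows of the group were also richer in G and C, with a median of 62.5% against 53.0% over all windows. TGACG was found in 23.8% of the group's windows and 20.9% of all, the full element TGACGTCA, which contains TGACG, in 2 of 42 (4.76%) and 1.80% of all, and TATAAA in 3 of 42 (7.14%) and 13.6% of all. A match of letters is a description of the window and not a binding site.

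In susceptible against naive mice, 0 of 42 genes passed, beside 2.28% of all genes tested, and 13 had an unadjusted p under 0.05 in limma. The median difference was 0.21, against 0.02 over all genes, and 35 genes lay above 0. The median was 0.14 without naive mouse 3, and 0.28 without naive mouse 4, the lowest and highest of the fits that left out 1 mouse. The gene of smallest p was Unc13c, with -0.61 ± 0.15 (limma, adjusted p = 0.053). Synj1 had 0.60 ± 0.18 (adjusted p = 0.079), Syp 0.42 ± 0.13 (0.086) and Dnm1 0.28 ± 0.09 (0.094) in the same fit.

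Doc2b and Pclo were the other genes of smallest p in susceptible mice. Doc2b encodes a calcium sensor with high affinity, linked to spontaneous release. Its signal was 1.82, 1.71, 1.66, 1.59, 1.41 and 1.19 in susceptible mice and 1.25, 1.07, 0.99, 0.90 and 0.81 in naive mice. Only the lowest susceptible mouse, number 3, was within the naive range. The difference was 0.56 ± 0.16, with a limma adjusted p of 0.074.

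Pclo encodes piccolo, a very large scaffold protein of the active zone. Its signal was 4.43, 4.26, 4.17, 4.14, 4.05 and 3.90 in susceptible mice and 4.88, 4.57, 4.50, 4.39 and 4.35 in naive mice. Susceptible mouse 5, the highest of its group, lay above the 2 lowest naive mice, and the rest did not overlap. The difference was -0.38 ± 0.11 (limma, adjusted p = 0.081). Napa, which encodes the alpha SNAP adaptor of NSF, had 0.31 ± 0.10 (adjusted p = 0.10) and Syt13, an unusual synaptotagmin without the usual calcium-binding residues, had 0.32 ± 0.12 (adjusted p = 0.14) in the same fit.

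Groups of susceptible and naive mice did not overlap for 1 of 42 genes, Syp, beside 3.82% of all genes. With slide as a block, 10 of 42 genes passed, beside 15.2% of all genes (9.04% higher and 6.12% lower). Of the 10, 8 were higher and 2 lower. Those that rose were Dnm1, Doc2b, Napa, Snap47, Sv2b, Synj1, Syp and Vamp1, and those that fell were Pclo and Unc13c. Snap47 encodes a widely distributed SNAP-25 relative and Vamp1 a vesicle SNARE. In the 14 fits with slide as a block that left out 1 mouse each, Unc13c passed in 14, Sv2b in 13 and Doc2b in 11, while Synj1 and Syp passed in 2 each. The count of the 42 genes in these fits lay between 1, without naive mouse 1, and 11, without susceptible mouse 6. It was 5 without naive mouse 2 or 3, 2 without susceptible mouse 4, 3 without susceptible mouse 1, 2 or 5, 4 without susceptible mouse 3, naive mouse 4 or resilient mouse 1 or 3, and 6 without resilient mouse 2. Over the fits that left out 1 mouse, 4.95% to 19.4% of all genes passed. Without naive mouse 1 no naive mouse was left on slide 1. With scan day in place of slide 11 of 42 passed, beside 17.1% of all genes, and with array brightness as a covariate 2 of 42, beside 9.23%.

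Within single slides the size of the shift differed. The median difference of susceptible from naive mice over the 42 genes was 0.15 on slide 1, 0.41 on slide 2 and 0.05 on slide 3, with 0 of 42 called on each. Over all genes it was 0.08 on slide 1, where 60.5% of genes lay above 0, -0.0025 on slide 2 and 0.03 on slide 3. Slide 1 held only 1 naive mouse, number 1, so each difference on slide 1 is set against that mouse alone. Slide 2 held naive mice 2 and 3. Synj1 differed by 0.28 on slide 1, 1.28 on slide 2 and 0.13 on slide 3, and Syp by 0.27, 0.83 and 0.10. Unc13c differed by -0.58, -0.46 and -0.63, Doc2b by 0.78, 0.49 and 0.45 and Sv2b by 0.48, 0.47 and 0.32. Synj1 and Syp had their widest gap on slide 2, and Unc13c had its narrowest gap there.

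**Figure D2:**
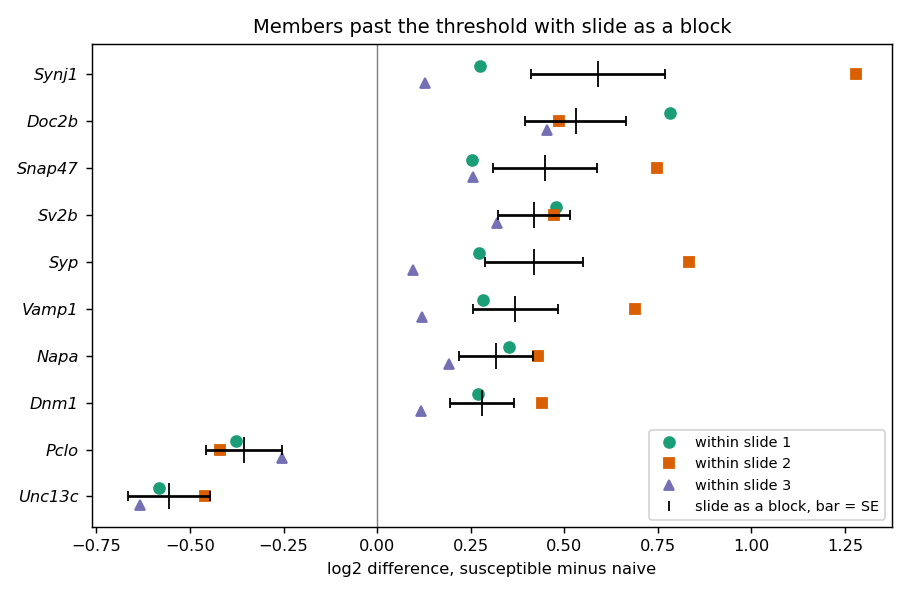
Log2 difference of susceptible from naive mice (horizontal axis) for the 10 genes past the threshold with slide as a block, within slides 1, 2 and 3 (symbols) and fitted with the slide block (black, bar = SE). The slide 2 point lies far to the right for Synj1 (1.28) and Syp (0.83), while the 3 slides lie close together for Sv2b, Pclo and Unc13c. Slide 1 held 1 naive mouse, and slides 2 and 3 held 2 each.

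In resilient against naive mice, 0 of 42 genes passed, beside 0.139% of all genes, and 11 had an unadjusted p under 0.05 in limma. The median difference was 0.26, and 34 of the 42 genes lay above 0. Synj1 had the smallest p, with 0.82 ± 0.22 (limma, adjusted p = 0.10), followed by Dnm1 with 0.35 ± 0.11 (adjusted p = 0.12). Syn1, which encodes the vesicle tether synapsin I, had 0.40 ± 0.15 (adjusted p = 0.16), Napb, the beta SNAP adaptor gene, 0.39 ± 0.15 (0.17) and Unc13c -0.51 ± 0.18 (0.15) in the same fit. Syp had 0.43 ± 0.16 (0.16), Pclo -0.34 ± 0.14 (0.19) and Syt13 0.34 ± 0.15 (0.22). The median difference was 0.13 without naive mouse 3.

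The 3 resilient and 5 naive mice did not overlap for 8 of 42 genes, beside 14.1% of all genes. Dnm1, Napa, Napb, Nsf, Syn1, Synj1 and Syp lay higher in resilient mice and Pclo lower. Syn1 was at 6.44, 6.32 and 6.21 in resilient mice and at 6.04, 6.00, 5.97, 5.92 and 5.67 in naive mice. Napb was at 5.14, 5.09 and 4.92 in resilient mice and at 4.80, 4.77, 4.76, 4.67 and 4.30 in naive mice, with naive mouse 3 the lowest. Napa, Napb and Nsf together encode the machinery that takes SNARE complexes apart, and their differences ranged between 0.25 and 0.39. None of these genes passed (limma, adjusted p = 0.22, 0.17 and 0.27).

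The deviations of same-numbered resilient and naive mice from their group means correlated at 0.11, 0.32 and 0.28. Those of differently numbered mice correlated at -0.35 to 0.15. The fit with the replicate number as a block kept only numbers found in both groups, and so left out naive mice 4 and 5. Over the 42 genes those mice had the highest medians of the naive mice (0.15 each). In that fit 6 of 42 genes rose in resilient mice, beside 8.49% of all genes (4.51% higher). These were Synj1 (1.02 ± 0.16, limma adjusted p = 0.023), Rims2, Bsn, Sv2b, Syn3 and Unc13b. Rims2 and Bsn encode the scaffolds RIM2 and bassoon. Syn3 encodes a synapsin, and the 4 genes other than Synj1 and Rims2 had adjusted p-values between 0.038 and 0.050 in that fit. In the fit of all arrays without a block, Rims2 had 0.43 ± 0.31 and Bsn 0.29 ± 0.21 (limma, adjusted p = 0.46 for each). There Sv2b, Syn3 and Unc13b had 0.36, 0.42 and 0.42 (limma, adjusted p = 0.34, 0.26 and 0.24). With slide as a block 0 of 42 passed in limma, beside 3.92% of all genes, and 17 had an unadjusted p under 0.05. With scan day as a block 4 passed, beside 10.1%, and with array brightness as a covariate 1 passed, beside 6.43%.

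The comparison of susceptible with resilient mice asks whether these genes differed between the behavioural classes. No gene passed, 0 of 42 beside 0% of all 14437 genes. At an unadjusted p under 0.05 limma gave 1 of 42, Doc2b, whose signal in resilient mice was 1.61, 1.17 and 0.62, from above 3 of the 6 susceptible mice to below all naive mice. Its difference was 0.43 ± 0.19 (limma, unadjusted p = 0.039, adjusted p = 1.00). The median difference over the 42 genes was -0.01, with 19 above 0 and 23 below. The 2 classes overlapped for all 42 genes, while 0.568% of all genes tested did not overlap. With slide, scan day or array brightness in the fit the limma count was again 0 of 42 and 0% of all genes.

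The other genes of smallest p between the classes did not pass. Cplx2, the gene of a complexin that clamps and promotes SNARE fusion, differed by -0.52 ± 0.43 and Rab3c, a vesicle GTPase gene, by -0.41 ± 0.27. Syt1, the gene of the fast calcium sensor of release, differed by -0.22 ± 0.15, Nsf by -0.17 ± 0.12 and Syn2 by -0.16 ± 0.12. Stxbp5, the tomosyn gene, whose product holds back SNARE assembly, differed by 0.15 ± 0.14 and Vamp2, the gene of the main vesicle SNARE of the forebrain, by 0.13 ± 0.11. All had limma adjusted p-values of 1.00. Cplx2 and Rab3c were among the genes that differed most between scan days, and no resilient mouse was scanned on day 2. Fitted with slide as a block they differed by -0.17 ± 0.25 and -0.15 ± 0.14, and Syt1, Nsf and Vamp2 by -0.11, -0.11 and 0.08. Synj1, Dnm1, Syp and Unc13c differed between the classes by -0.21 ± 0.21, -0.07 ± 0.11, -0.01 ± 0.15 and -0.10 ± 0.18.

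**Figure D3:**
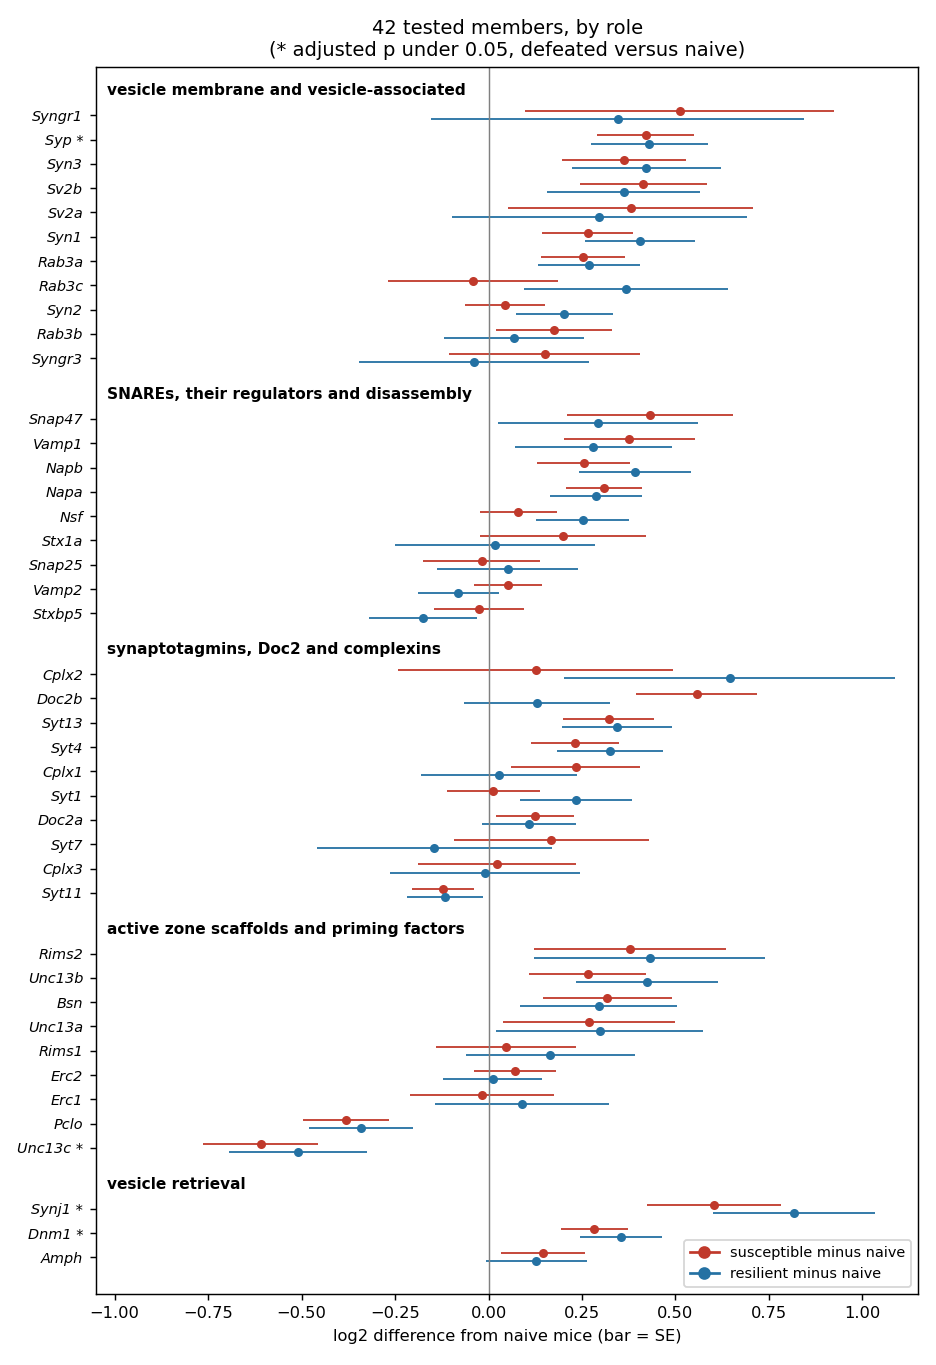
Log2 difference from naive mice (horizontal axis, bar = SE) of the 42 tested genes, grouped by role, for susceptible and resilient mice, with an asterisk on the 4 genes called between defeated and naive mice. Most points lie right of 0 in both classes, Unc13c and Pclo lie left of it, and the SEs of Cplx2, Syngr1 and Sv2a are wide.

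Several core genes of release did not pass. Snap25, the gene of a plasma membrane SNARE, differed by 0.02 ± 0.15 between defeated and naive mice, Vamp2 by -0.01 ± 0.09, and Stx1a, the gene of syntaxin 1A, by 0.11 ± 0.21. Syt1 differed by 0.12 ± 0.12 and Rims1, the RIM1 gene, by 0.11 ± 0.18. Erc1 and Erc2, which encode ELKS scaffolds, had 0.04 ± 0.18 and 0.04 ± 0.10. Stx1a, with slide as a block, had 0.29 ± 0.11 (limma, adjusted p = 0.068). It differed by 0.05 within slide 1 and by 0.61 within slide 2. On slide 3, which held no resilient mice, Stx1a differed by 0.08 between susceptible and naive mice. With the slide block the sign turned for Snap25 (-0.11), Erc1 (-0.07) and Vamp2 (0.03), and Syt1 and Rims1 had 0.05 and 0.03.

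Many of these genes differed between the scan days. In a fit of the susceptible and naive mice with group and scan day, 18 of 42 genes differed between days, 12 higher on day 2 and 6 lower, beside 35.6% of all genes (21% higher and 14.6% lower). Syngr1, a synaptogyrin gene of the vesicle membrane, was higher by 1.31 ± 0.28 on day 2 than on day 1 (limma, adjusted p = 0.0034), Syt7, the gene of a slow calcium sensor, by 0.92 ± 0.12 and Sv2a, a vesicle glycoprotein gene, by 0.92 ± 0.25. Among the genes lower on day 2, Cplx2 had a difference of -1.21 ± 0.22, Rab3c of -0.78 ± 0.12 and Snap25 of -0.42 ± 0.10.

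For Cplx2 and Syngr1 the direction was seen in both groups. Cplx2 was at 6.64 and 6.86 on day 2 and between 7.87 and 8.68 on day 1 in susceptible mice, and at 6.95 and 7.33 on day 2 and between 7.46 and 8.39 on day 1 in naive mice. Syngr1 was at 3.57 and 3.87 on day 2 and between 2.54 and 3.01 on day 1 in susceptible mice, and at 3.61 and 3.69 on day 2 and between 0.86 and 2.45 on day 1 in naive mice. The days did not overlap for either gene in either group. Of the 4 genes called between defeated and naive mice, 0 were among the 18, and their day terms lay between 0.06 and 0.13. They were called in a fit without a day term, where a day difference widens the spread and hinders a call. Their small day terms thus follow in part from how they were picked. A term averages over both groups, which differed in direction for 3 of the 4. Synj1 averaged -0.11 on day 2 and 0.14 on day 1 in susceptible mice, and -0.24 on day 2 and -0.75 on day 1 in naive mice. Syp averaged 5.98 on day 2 and 6.16 on day 1 in susceptible mice, and 5.88 on day 2 and 5.55 on day 1 in naive mice. Dnm1 was likewise lower on day 2 in susceptible mice and higher on day 2 in naive mice, and Unc13c was higher on day 2 in both. Whether the day difference itself differed between the groups was not tested. Scan day here is also slide 3, and which of scan, slide or mice the term holds cannot be told apart.

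**Figure D4:**
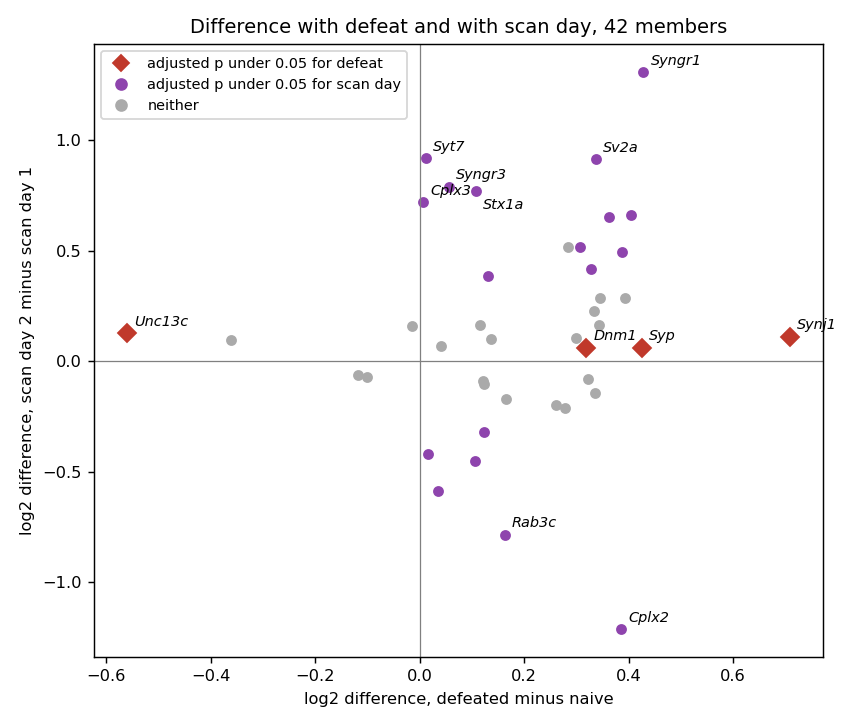
Log2 difference of defeated from naive mice (horizontal axis) against the log2 difference of scan day 2 from scan day 1 (vertical axis) for the 42 genes. The vertical values average over susceptible and naive mice. The 4 genes called for defeat lie near 0 on that axis, and Syngr1 (1.31) and Cplx2 (-1.21) lie far from it. The 4 were called in a fit without a day term, which favours genes with a small day difference.

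Different probes of a gene did not always move alike. Of 13 genes with 2 or more tested probes (31 probes), 8 had all probes on one side of 0 between defeated and naive mice and 5 did not, namely Cplx2, Erc1, Erc2, Pclo and Syngr1. The 4 Pclo probes gave -0.36 ± 0.11, -0.29 ± 0.10, 0.20 ± 0.14 and 0.16 ± 0.18, the first being the brightest, so the lower value of Pclo holds for 2 of its 4 probes. The 2 Syngr1 probes gave 0.43 ± 0.39 and -0.16 ± 0.13. Both Napa probes gave 0.30. Synj1, Syp and Unc13c had 1 tested probe each.

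**Figure D5:**
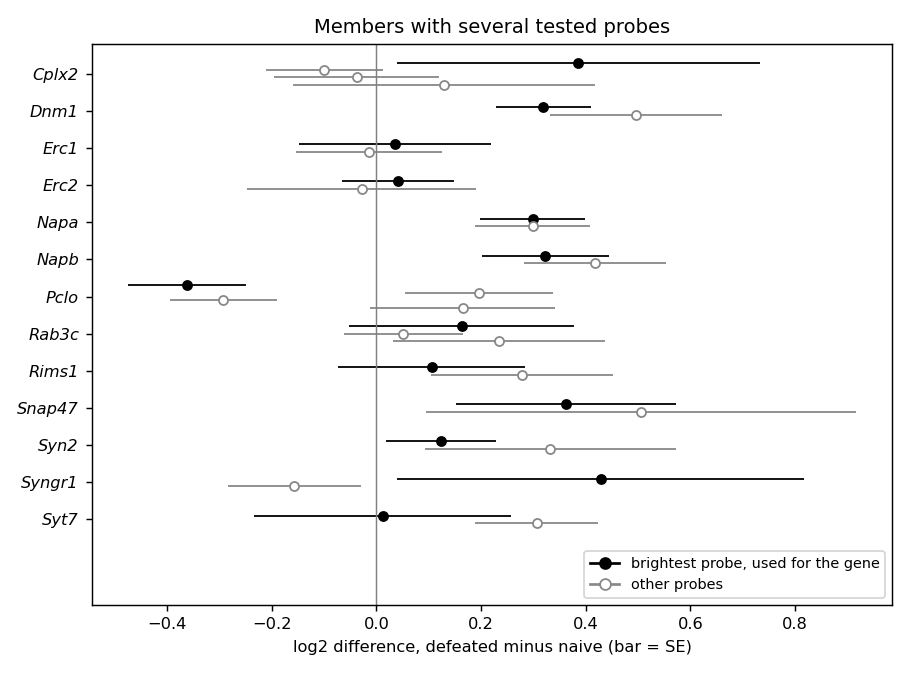
Log2 difference of defeated from naive mice (horizontal axis, bar = SE) for each probe of the 13 genes with several tested probes, the brightest probe filled. The Dnm1, Napa and Napb probes lie right of 0, and those of Pclo lie on both sides.

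Other genes of the same pathway were counted from 3 further lists. Of 22 other vesicle transporter and membrane genes, 0 passed between defeated and naive mice, beside 7.54% of all genes. The median difference of this list was 0.25. In susceptible mice its 2 genes of smallest p encode subunits of the proton pump that energises vesicle filling, Atp6v0a1 with 0.30 ± 0.11 (limma, adjusted p = 0.12) and Atp6v1e1 with 0.32 ± 0.12 (0.14). With slide as a block, 8 of the 22 rose in defeated mice and 1 fell, beside 12.8% of all genes higher and 7.41% lower in that fit. Those that rose were Scamp1 and 7 pump subunit genes, Atp6v0c, Atp6v0d1, Atp6v1a, Atp6v1b2, Atp6v1c1, Atp6v1e1 and Atp6v1g2, and Dnajc5, the gene of a vesicle chaperone, fell.

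Of 26 other docking, priming and active zone genes tested, 1 passed between defeated and naive mice, beside 7.54% of all genes. The same gene alone passed between susceptible and naive mice, beside 2.28%. Syt17, a synaptotagmin-like gene, rose by 0.82 ± 0.14 in defeated mice (limma, adjusted p = 0.011) and by 0.87 ± 0.14 in susceptible mice (adjusted p = 0.019). Of 24 other endocytosis genes, 1 passed between defeated and naive mice, again beside 7.54% of all genes. It was Dnajc6, which encodes auxilin, a partner of synaptojanin in uncoating vesicles. Dnajc6 rose by 0.59 ± 0.13 in defeated mice (limma, adjusted p = 0.022). The median differences of these lists were 0.14 and 0.09. With slide as a block, 5 of the 26 rose and 1 fell, and 5 of the 24 rose, among them Dnajc6 with 0.54 ± 0.12 (limma, adjusted p = 0.013). Of all genes, 20.2% passed in that fit.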

How the data were processed

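The deposited scanner tables hold spot intensities on a linear scale, background-subtracted by Agilent Feature Extraction 11.0.1.1, per the file headers and the submitters' processing notes. The authors' deposited value table holds log2 values that differ from log2 of these intensities by 1 constant per array (r = 1), which sets the 75th percentile to 0. It was used as an alternative.

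Control spots (3671 of 62976) and outlier spots were left out, spots of a probe were averaged to 55681 probes, and log2 intensities were set relative to the 75th percentile of their array. Probes were named by RefSeq accession (assembly GRCm38.p6, used for names and the printed start regions; the headers name mm9), which gave 27509 probes a gene and 28172 none. A gene entered the tests when, in at least 1 group, its brightest probe passed background on every array. The 3 groups were fitted with limma 3.58.1 in R 4.3.3 (lmFit, eBayes), and the fit was tested on simulated data. The mice are separate animals. Each mouse was left out in turn, slide, scan day, brightness and replicate number were entered as terms, and scaling, background correction (normexp, offset 50), filters and probe rules were varied. The slide block with a mouse left out, the scan day term and the fits of each probe were added after the data were seen.

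Same-numbered resilient and naive mice had deviations from their group means that correlated at 0.11, 0.32 and 0.28, all above 0.1, so their numbers were taken as pairs. This comes from the data and not from the labels. Differently numbered resilient and naive mice correlated at -0.35 to 0.15, and naive mouse 1 correlated more with resilient mouse 2 than with resilient mouse 1. The mice numbered 1 shared a slide, as did those numbered 3. Whether the numbers are true pairs was not tested. Members and lists were chosen with earlier results of these data known. Per-mouse values are given for members of small p or called, and the rest by range and count. Syn3, Rims2, Bsn, Unc13b, Sv2b, Snap47, Vamp1 and the core genes of release that did not pass were named after their values were seen.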

Additional observations from a re-analysis of the deposited data

Results flagged for a closer look

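In 4 of the gene and group sets examined, 1 mouse lay far from the others of its group. Over 36 sets examined, chance gives about 1 in 20. Syn2 was at 7.02 in susceptible mouse 4, against 6.51 to 6.69 in the 5 other susceptible mice. Stxbp5 was at 1.21 in naive mouse 3, against 0.76 to 0.88 in the 4 other naive mice, and Napb was at 4.30 in the same mouse, against 4.67 to 4.80. Syt1 was at 7.61 in naive mouse 1, against 7.23 to 7.33 in the 4 other naive mice. The causes were not tested.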

How the results depend on the processing

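Of the values under the alternatives for the 28 pairs of gene and comparison that the naming rule took, 1123 kept their direction and their side of the threshold, 78 passed it newly, 61 no longer passed it and 2 changed sign. Both were Cplx2 between susceptible and resilient mice, with 0.0599 within slide 1 and 0.0767 with the replicate block. Of the 28 pairs, only the 4 of defeated and naive mice had passed in the first fit, so all 61 losses were theirs. A pair that passed in neither fit is among the 1123, so that count does not measure how stable the calls were. Outside the naming rule, Snap25, Erc1 and Vamp2 turned sign between defeated and naive mice with slide as a block (-0.11, -0.07 and 0.03). Percentages in brackets are of all genes called in the same fit. Of the 42 genes, the count called between susceptible and naive mice was 10 with slide as a block (15.2%), 11 with scan day as a block (17.1%), 4 with quantile normalisation (4.05%), 6 at an adjusted p under 0.1 (8.31%), 2 with brightness as a covariate (9.23%), 2 with the replicate block (5.12%) and 1 with the filter on all 14 arrays (2.77%), the mean of all probes (3.38%), the trend and robust eBayes settings (2.48%) or array weights (3.01%). Leaving out 1 mouse gave 0 to 1 (0.00693% to 5.17%), and 1 to 11 with slide as a block (4.95% to 19.4%). The median difference was 0.41 within slide 2 and 0.0537 within slide 3. Between resilient and naive mice the count was 4 with scan day as a block (10.1%), 1 with brightness (6.43%), 6 with the replicate block (8.49%), 2 with array weights (4.83%), 1 at an adjusted p under 0.1 (1.95%), and, when 1 mouse was left out, 0 to 0 without slide as a block (0% to 0.506%) and 0 to 5 with it (0% to 9.31%). The median was 0.13 with array weights, and 0.13 to 0.27 when 1 mouse was left out. Between defeated and naive mice the count was 10 with quantile normalisation (8 higher and 2 lower, median 0.32; 10.9%), 0 with the array median (1.82%), 0 with no filter on dim probes (1.26%), 10 with slide as a block (20.2%), 15 with scan day as a block (25.8%), 8 with brightness (19.6%), 14 with the replicate block (median 0.33; 18.8%), 9 at an adjusted p under 0.1 (16.8%) and 0 within slide 1 (0.139%) or slide 2 (0.00693%, median 0.32). With normexp 3 genes rose and 0 fell (3.93%). Leaving out 1 mouse gave 0 to 4 (0.651% to 10.8%), and 1 to 15 with slide as a block (6.04% to 23.9%). The replicate block kept only mice whose number occurred in each group compared. Between susceptible and naive mice it left out susceptible mouse 6. Every comparison with resilient mice used numbers 1 to 3 only, without naive mice 4 and 5 or susceptible mice 4, 5 and 6. Between susceptible and naive mice the block rests on shared numbers only, as same-numbered mice correlated at -0.37 to 0.71. Between susceptible and resilient mice 0 of 42 were called under every alternative run, with 1 at an unadjusted p under 0.05 in limma. A fit of only the groups compared could not be made for defeated mice, and slide 3 held no resilient mice. The array weights stopped short of convergence. The causes of these shifts were not tested.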
